A study of Drosophila melanogaster with 4 samples.

Results

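The base of the X chromosome was examined as the 5 Mb of assembled sequence nearest the centromere, from 17422828 to 22422827 of X in FlyBase release 5. Su(var)3-7 was mapped there by chromatin immunoprecipitation and sequencing (ChIP-seq), which recovers the DNA bound by a protein with an antibody to it. Members are the enriched regions of the deposited combined list whose midpoint lies in that interval, and there were 467 of them among 10603 regions in all. The same interval held 238 of 6098 regions in replicate 1 and 238 of 6295 in replicate 2. The interval is defined by position.

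The 2 ChIP libraries were made with the antibody Q3448 from wild-type Oregon-R embryos aged 14 to 16 h, collected in bulk from population cages and fixed in 1.8% formaldehyde. Each had an input library of the same genotype and age, which is genomic DNA sequenced without immunoprecipitation. The labels pair the 2 inputs with the ChIP libraries by number. No sex is given for the embryos. The labels do not say whether the replicates came from separate collections, and whole embryos mix all tissues of that age. No expression values are among the files used here, so the stage could not be checked against markers.

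Su(var)3-7 is a zinc-finger protein that binds the heterochromatin protein HP1a and the histone methyltransferase Su(var)3-9, and its dose changes the silencing of genes placed next to heterochromatin. In polytene chromosomes of the salivary gland it is known from pericentric heterochromatin, chromosome 4 and some sites on the arms, and the shape of the male X chromosome is sensitive to its dose. The X of this species is a rod with its centromere at one end, so a single block of pericentric heterochromatin adjoins the interval studied. The base of X also carries flamenco, a locus of piRNAs that silences transposons in the ovary. No gene or locus was assigned to a region here, because the gene table used is of release 6 and the regions are placed in release 5.

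Su(var)3-7 covered a modest part of the proximal 5 Mb of X. Coverage, the percent of bases inside enriched regions, was 11.5% in replicate 1 and 11.8% in replicate 2, against 6.45% and 7.35% of the remaining 17.4 Mb of X. The mean was 11.6% ± 0.221 in the proximal 5 Mb and 6.90% ± 0.640 in the rest of X (SD, n = 2 each). Covered sequence came to 575 kb and 590 kb. The ratio of the proximal 5 Mb to the rest of X was 1.69 ± 0.125 and lay above 1 in both replicates. Regions numbered 47.6 per Mb in the proximal 5 Mb in each replicate, against 27.0 and 30.8 per Mb in the rest of X. The combined list covered 23.8% of the proximal 5 Mb and 15.0% of the rest of X. An exact two-sided permutation test of 2 paired replicates cannot give a p below 0.5, so none was run and these values are descriptive.

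The rest of X was not uniform, and the comparison depended on which part was taken. Coverage of the proximal 5 Mb was 2.32-fold ± 0.227 that of the interior of X, which runs from 5 Mb below the distal tip to the proximal interval and was covered over 5.05% ± 0.589 (SD, n = 2). Set against the sequence from 1 to 5 Mb from the distal tip, it was 0.985-fold ± 0.0496, a difference smaller than the replicate spread. That distal belt was covered over 11.8% ± 0.820. The interior between the proximal and distal intervals was the least covered of the 3.

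Of the 22 whole 1 Mb steps of X counted from the proximal end, the first ranked 3rd by mean coverage, at 16.1% ± 2.07 (SD, n = 2). The next ranked 19th at 4.47% ± 0.131. The steps from 2 to 3, 3 to 4 and 4 to 5 Mb ranked 6th, 4th and 5th, at 10.7% ± 1.62, 14.5% ± 0.839 and 12.4% ± 0.852. The 2 steps with more coverage than all of these lay from 20 to 22 Mb, toward the distal tip, at 21.9% ± 2.00 and 19.8% ± 0.767. The step just outside the interval, from 5 to 6 Mb, was covered over 4.96% ± 0.467.

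**Figure D1:**
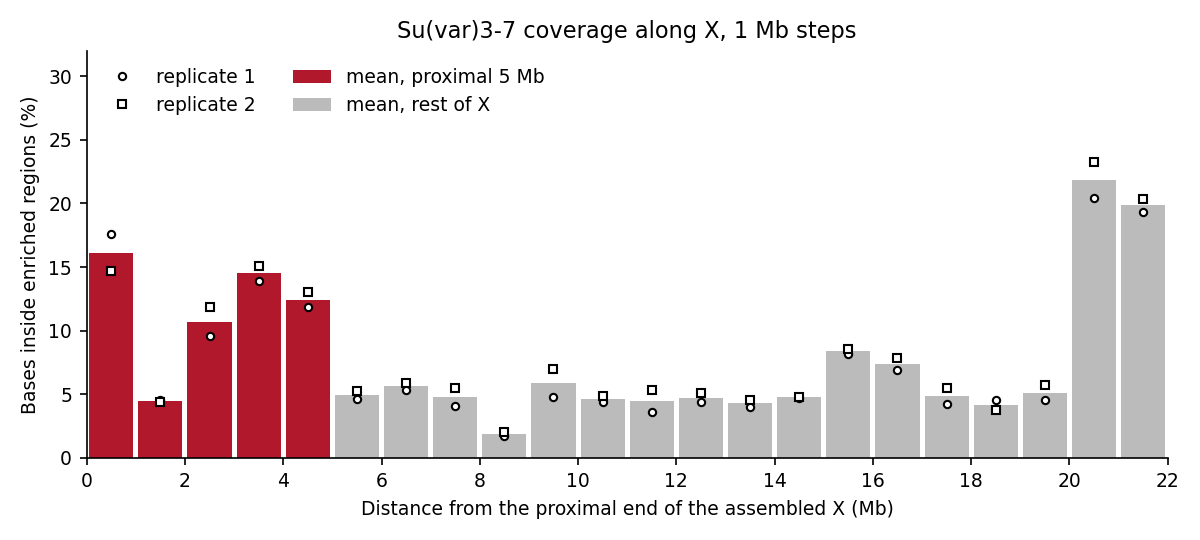
Percent of bases inside enriched regions (vertical axis) in 22 steps of 1 Mb along X by distance from the proximal end of the assembled arm in Mb (horizontal axis). Bars give the mean of 2 replicates, red for the proximal 5 Mb and grey for the rest of X, and open symbols give each replicate. The step from 1 to 2 Mb stands at 4.47%, near the interior of X, between neighbours at 16.1% and 10.7%.

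Coverage did not decline steadily with distance from the centromere. In replicate 1 the 5 steps of 1 Mb, from the proximal end outward, were covered over 17.6%, 4.56%, 9.55%, 13.9% and 11.8%. In replicate 2 they were covered over 14.7%, 4.38%, 11.8%, 15.1% and 13.0%. The low second step and the rise beyond it were present in both replicates. Between the replicates the first and the fourth step were not separated, since their values were 17.6% and 13.9% in replicate 1 and 14.7% and 15.1% in replicate 2. The region counts were also lowest in the second step, with 62, 21, 39, 63 and 53 regions in replicate 1 and 57, 18, 51, 55 and 57 in replicate 2. The combined list covered 26.8%, 11.2%, 22.7%, 32.2% and 25.9% of the same steps, with the fourth above the first. Its region counts were 91, 53, 96, 121 and 106, again lowest in the second step.

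At a finer scale coverage peaked in 3 places. In steps of 250 kb, 1 peak lay from 0.75 to 1 Mb, with 32.4% in replicate 1 and 23.2% in replicate 2. The other 2 peaks lay from 2.75 to 3 Mb, at 26.1% and 27.6%, and from 3.75 to 4 Mb, at 23.1% and 25.9%. The 4 most covered of the 20 steps held 44.8% of the covered bases of the interval in replicate 1 and 41.5% in replicate 2, while those of the combined list held 35.3%. The 2 steps nearest the end of the assembled sequence were lower, at 11.2% and 5.42% in replicate 1 and 9.95% and 6.58% in replicate 2. The coverage of the 20 steps in the 2 replicates had a Pearson r of 0.938 and a Spearman rho of 0.947 across steps of 1 chromosome, which share their libraries and are not replicates.

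**Figure D2:**
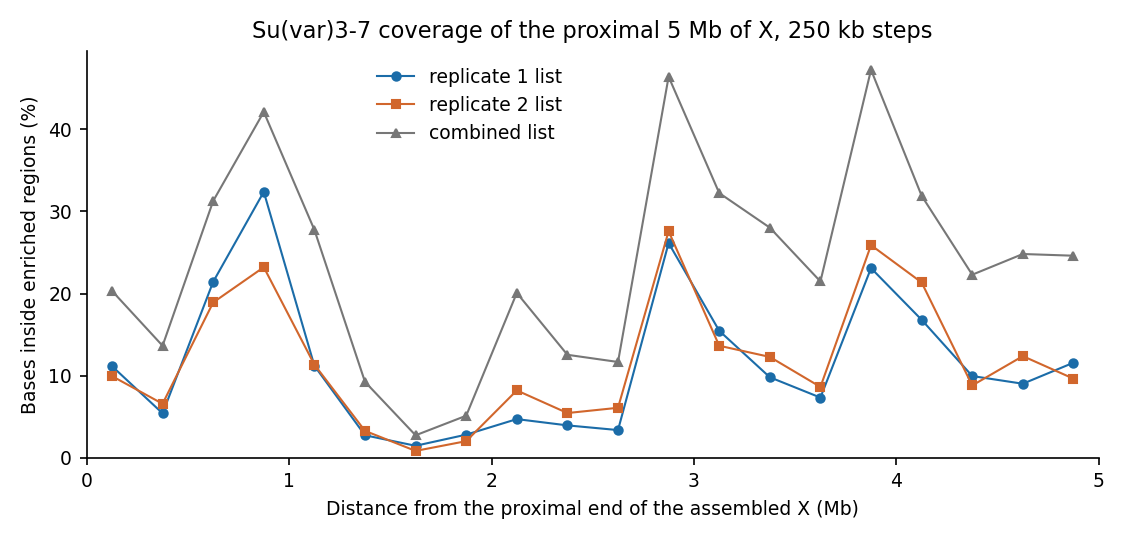
Percent of bases inside enriched regions (vertical axis) in 20 steps of 250 kb of the proximal 5 Mb of X, by distance from the proximal end in Mb (horizontal axis), for the replicate 1, replicate 2 and combined lists. The 3 lists peak in the same steps, from 0.75 to 1, 2.75 to 3 and 3.75 to 4 Mb, and share a trough from 1.25 to 2 Mb.

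The trough from 1.25 to 2 Mb, a stretch chosen after its values were seen, was covered over 2.20% ± 0.207 and held 9 regions in replicate 1 and 8 in replicate 2 (SD, n = 2). The stretch from 0.5 to 1 Mb, chosen in the same way, was covered over 24.0% ± 4.13 and held 47 and 37 regions. The longest stretch of the combined list without a region, X 20732359 to 20901451, is 169093 bp long and lies in the trough. The same place was empty over 239733 bp in replicate 2, the longest such stretch of that list, and over 171248 bp in replicate 1. The longest of replicate 1 lay elsewhere, from X 19786979 to 20060836 (273858 bp). Replicate 2 had 3 regions that overlapped it, but only X 19953256 to 19954643 lay wholly inside and the others crossed its edges. Replicate 2 was itself empty there from X 19787135 to 19953255 (166121 bp). The next longest of the combined list were X 20397240 to 20502369 (105130 bp), X 19954511 to 20052798 (98288 bp), X 21682133 to 21778076 (95944 bp) and X 19858954 to 19953364 (94411 bp). Stretches of more than 50 kb without a region took up 49.6% of the interval in replicate 1 and 51.2% in replicate 2, but 25.1% in the combined list. A stretch without a region holds no sequence past the authors' calling limit, which is no measure of absent binding.

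Spacing between neighbouring regions was uneven. Over all gaps of the interval, the long empty stretches included, the median was 7183 bp in replicate 1 and 6706 bp in replicate 2. The quartiles were 1817 and 16350 bp in replicate 1 and 1520 and 19625 bp in replicate 2. When regions at most 10 kb apart were joined, replicate 1 gave 96 groups and replicate 2 gave 88, of which 53 and 46 were single regions. The largest group of replicate 1 ran from X 21823760 to 21914958, with 17 regions over 91.2 kb and 44.1% of its bases covered, and replicate 2 had 13 regions there. The largest group of replicate 2 ran from X 18506155 to 18596867, with 16 regions over 90.7 kb and 53.6% covered, and replicate 1 had 14 regions there. Groups of 10 or more regions numbered 5 in replicate 1, with 27.7% of members in 7.40% of the interval, and 3 in replicate 2, with 16.4% of members in 4.23%. In the combined list, which has more regions, 11 such groups held 47.3% of members in 22.9% of the interval. Its largest group had 42 regions over 179 kb, from X 19041920 to 19221354, where the replicates were covered over 19.3% and 20.0% only.

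Individual regions were narrow. The median width was 2002.5 bp in replicate 1 and 2031 bp in replicate 2, against 1969.5 bp and 1977 bp in the rest of X. Regions of more than 5 kb made up 4.20% of members in replicate 1 and 5.88% in replicate 2, against 4.89% and 4.47% in the rest of X. By 1 Mb step the median ranged from 1946 to 2275 bp in replicate 1 and from 1829 to 2252 bp in replicate 2. The extra coverage of the interval over the rest of X came with more regions, at a density ratio of 1.65 ± 0.156, while the ratio of median widths was 1.02 ± 0.00747 (SD, n = 2). The narrowest member was 1303 bp in replicate 1, 1302 bp in replicate 2 and 1001 bp in the combined list, so widths were compared only within a list.

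The deposited score is 1 number per region on a scale that the sources used here do not give, so each score was also expressed as its percentile within its own list, where the median of all regions is 50. Members had a median score of 0.646 in replicate 1 and 0.775 in replicate 2, and median percentiles of 52.7 and 58.8. Regions in the rest of X had median percentiles of 47.3 and 53.8. The difference of 5.14 ± 0.241 percentile points had the same sign in both replicates (SD, n = 2). Members were seldom among the strongest of the genome. Only 3 of 238 in replicate 1 and 9 of 238 in replicate 2 were in the highest-scoring 10% of their list, or 1.26% and 3.78%. The rest of X had 1.70% and 2.23%, so low shares were not particular to the interval. The proximal 5 Mb of the autosomal arms had 9.07% and 10.9% on 2L, 14.5% and 13.3% on 3L, and 2.62% and 4.03% on 3R. Wider members tended to have higher scores, with a Spearman rho of 0.675 in replicate 1 and 0.452 in replicate 2 across 238 regions each, which are not independent.

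By distance, the median percentile from the proximal end outward was 58.8, 52.7, 53.8, 52.6 and 44.7 in replicate 1 and 60.9, 55.5, 58.7, 59.7 and 51.5 in replicate 2. The first step was highest and the fifth lowest in both replicates, whereas the steps between them changed order. The median of the sparse step from 1 to 2 Mb lay above that of the step from 4 to 5 Mb in both replicates, but below it in the combined list, at 44.6 against 53.7. Of the members in the highest-scoring 10% of their list, the first step held 2 of 3 in replicate 1 and 5 of 9 in replicate 2. Of all 238 members, that step held 62 in replicate 1 and 57 in replicate 2. The second step held 1 in each replicate, X 20630485 to 20632693 and X 20630476 to 20632678, which overlap and are the same place. In the first step, X 22373938 to 22376814 of replicate 1 likewise overlaps X 22374395 to 22375744 of replicate 2. The third step held 3 in replicate 2 and 0 in replicate 1.

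The highest-scoring member of the combined list that both replicates held was X 20630462 to 20632701. It is 2240 bp wide and lies in the sparse step, 1791 kb from the proximal end. The combined list scored it 1.69 and the replicates 1.56 and 1.69, and the replicates covered 98.6% and 98.3% of its bases. By combined score, the strongest region found by both thus stood in the step with the fewest regions. In replicate 2, shared regions from 0 to 1 Mb scored higher, X 21628156 to 21629673 at 1.96 and X 22374395 to 22375744 at 1.78.

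The second, X 19558031 to 19564291 (6261 bp), had a combined score of 1.32 and replicate scores of 1.28 and 1.50. The third, X 22373786 to 22376747 (2962 bp), lay 47.6 kb from the proximal end and had a combined score of 1.30 and replicate scores of 1.47 and 1.78. The fourth, X 18132456 to 18134617 (2162 bp), had a combined score of 1.26 and replicate scores of 1.25 and 1.20. These 3 lay from 2 to 3 Mb, at the very base and from 4 to 5 Mb, so the strongest shared regions were spread over the interval.

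The 6 shared regions that followed were X 19486039 to 19491551 (1.11), X 17424586 to 17428404 (1.05), X 17644190 to 17646958 (1.01), X 19635655 to 19649680 (1.00), X 18212227 to 18216666 (0.981) and X 21537204 to 21539567 (0.969). From 3 to 4 Mb, a step with none of these 10, the top member was X 19157554 to 19163501 (5948 bp), with a combined score of 0.925 and replicate scores of 0.930 and 1.18. That step, covered over 14.5%, held no region in the highest-scoring 10% of either replicate list.

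The 5 widest shared regions followed another order. The widest was X 18533028 to 18553953, with 20926 bp and a combined score of 0.592, and replicate 1 covered 48.8% of it with 4 regions and replicate 2 covered 59.6% with 5. The next were X 18372646 to 18386937 (14292 bp, score 0.967), X 19635655 to 19649680 (14026 bp, 1.00), X 21875063 to 21886571 (11509 bp, 0.682) and X 18520033 to 18531407 (11375 bp, 0.785). The second was 1 region of 11550 bp in replicate 1 and 1 of 13282 bp in replicate 2, the widest members of those lists.

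Only the combined list had a region that reached the assembled end. The 3 members nearest the end of the sequence were X 22421144 to 22423122, X 22410128 to 22417018 and X 22394017 to 22399022, named for their place after the values were seen. The first had a combined score of 0.479, overlapped no region of either replicate and ran 295 bp past the stated length of X, which was removed from coverage. The next was found in both replicates, with a combined score of 0.929 and replicate scores of 0.935 and 0.992. At the other edge, the first member inside the interval was X 17424586 to 17428404 (score 1.05), then X 17430300 to 17432121 (0.250). The first regions outside were X 17407871 to 17409812 (0.411) and X 17405099 to 17407742 (0.518). The corresponding inner pairs scored 1.02 and 0.531 in replicate 1 and 1.29 and 0.722 in replicate 2. The outer pairs scored 0.648 and 0.598 in replicate 1 and 0.666 and 0.671 in replicate 2.

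The replicates shared most members. Of the 238 in replicate 1, 176 (74.0%, 95% Wilson interval 68.0 to 79.1) overlapped a replicate 2 region by at least 1 bp, against 75.8% of the whole list. Of the 238 in replicate 2, 178 (74.8%, 68.9 to 79.9) overlapped a replicate 1 region, against 79.5% of the whole list. These intervals reflect counting error alone, as if regions were independent. The first share is close to that of the whole list and the second has it inside its interval, so neither is a result about the base of X. The rest of X was asymmetric, with 74.3% of replicate 1 regions and 63.7% of replicate 2 regions shared. Shared bases made up 0.541 of the bases covered in either replicate (Jaccard index), against 0.511 in the rest of X. The index was higher in the proximal 5 Mb of the autosomal arms, at 0.713 on 2L, 0.763 on 3L and 0.696 on 3R.

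By step, the shared percent ran from 61.9% (1 to 2 Mb) to 82.1% (2 to 3 Mb) in replicate 1 and from 62.7% (2 to 3 Mb) to 89.5% (0 to 1 Mb) in replicate 2. In replicate 1 the Wilson intervals of both extremes held the 75.8% of the whole list, so its steps were not separated from that share. In replicate 2 the interval of 62.7% (49.0 to 74.7) lay below the 79.5% of the whole list. The interval of 89.5% (78.9 to 95.1) held that share. Differences between steps were not tested. From 2 to 3 Mb the replicates differed most in number, with 39 regions in replicate 1, of which 7 were unshared, and 51 in replicate 2, of which 19 were unshared. Shared members of replicate 1 had a median percentile of 57.0 and unshared ones 40.7, against 56.0 and 32.5 in the whole list. In replicate 2 the medians were 59.3 for shared and 57.0 for unshared members, against 57.4 and 28.6 in the whole list. Score thus separated shared from unshared members little in replicate 2. Unshared members were narrower in both, with median widths of 1513 bp and 1578 bp, against 2219.5 bp and 2215 bp for shared ones. Among 176 overlapping pairs the score percentiles had a Spearman rho of 0.671 across regions.

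Some of the highest scores were found once only. The second-highest region of replicate 1, X 21518055 to 21519808 (score 1.54), met no region of replicate 2. The second-highest of replicate 2, X 21532114 to 21533916 (score 1.79), met none of replicate 1. The highest member of the combined list in any class, X 21546323 to 21547477 (1155 bp, score 1.76), overlapped no region of either replicate. All 3 have their midpoints 876 to 904 kb from the proximal end. The highest region of replicate 2, X 21628156 to 21629673, scored 1.96 there, 1.06 in its replicate 1 partner and 0.851 in the combined region that holds it.

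**Figure D3:**
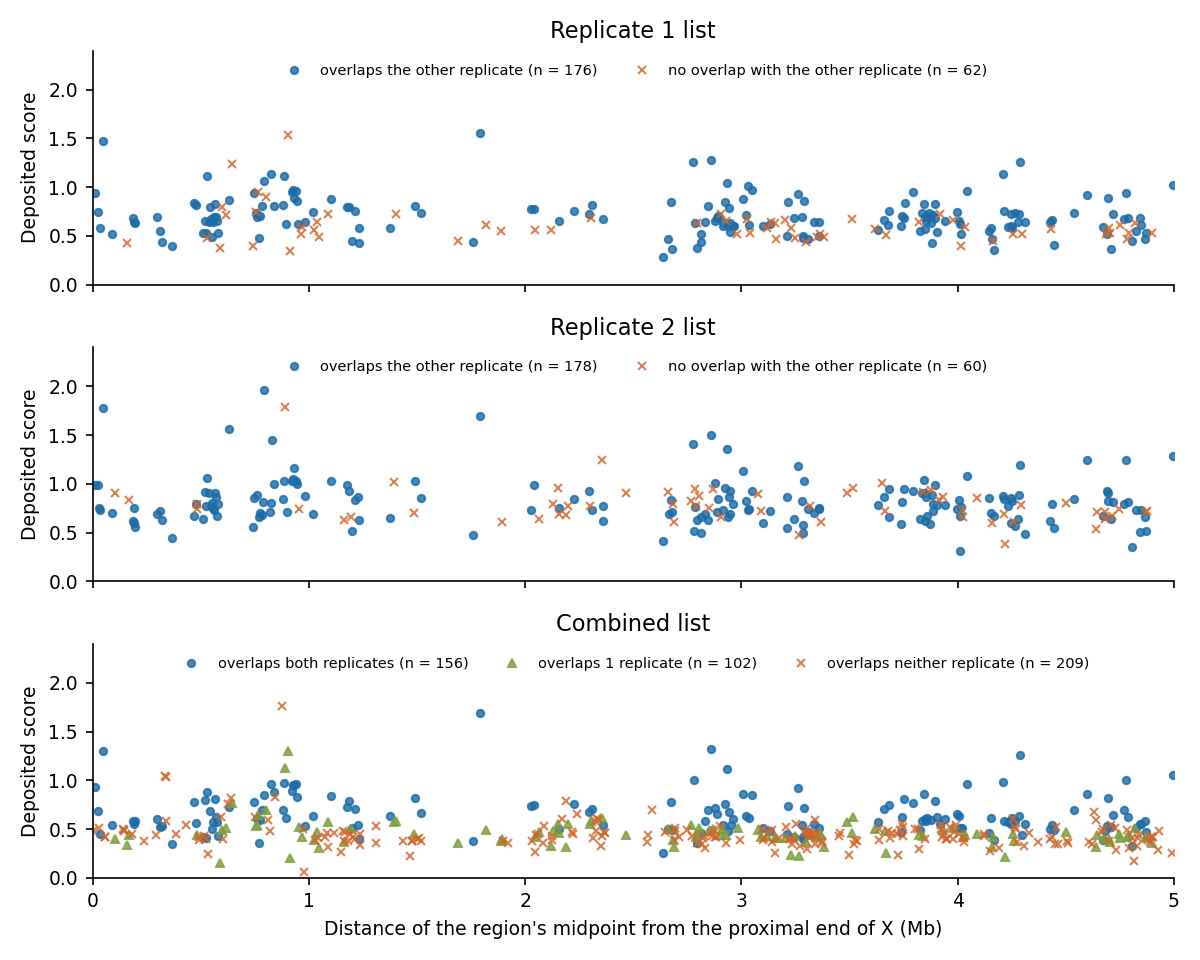
Deposited score of each member (vertical axis, scale not given by the sources) by distance of its midpoint from the proximal end of X in Mb (horizontal axis), in panels for the replicate 1, replicate 2 and combined lists. Symbols show overlap with the replicates: 176 of 238 and 178 of 238 replicate members were shared, and 156 of 467 combined members overlapped both. The combined member with the highest score, 1.76 at 876 kb, overlapped neither.

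The combined list held nearly all replicate members, with 1 of 238 of replicate 1 and 2 of 238 of replicate 2 missing. Of the whole lists, 29 of 6098 and 50 of 6295 were missing, so this is not particular to the interval. It also held many that neither replicate had. Of its 467 members, 156 (33.4%, 29.3 to 37.8) overlapped both replicates, against 38.7% of the whole combined list, and 209 (44.8%, 40.3 to 49.3) overlapped neither, also against 38.7%. A further 52 (11.1%) overlapped replicate 1 alone and 50 (10.7%) replicate 2 alone, near the 12.1% and 10.6% of the whole combined list. The intervals for both and for neither leave out the share of the whole list, but neighbouring regions are not independent and the difference was not tested. In the rest of X the shares were 29.1% for both and 46.0% for neither. Members in both replicates had a median width of 3675.5 bp and held 56.7% of the bases of members, against 1395 bp and 26.3% for members in neither. Their median scores were 0.608 and 0.425. Members in both made up 47.3% from 0 to 1 Mb (37.3 to 57.4) and 24.5% from 1 to 2 Mb (14.9 to 37.6).

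Set against the same 5 Mb of the autosomal arms 2L, 3L and 3R, the base of X was sparsely covered. Its coverage of 11.6% ± 0.221 was 0.388-fold ± 0.0392 that of 2L (30.1% ± 2.47), 0.296-fold ± 0.0238 that of 3L (39.4% ± 2.42) and 0.540-fold ± 0.0209 that of 3R (21.6% ± 0.428) (SD, n = 2). The ratio was below 1 in both replicates for each arm. Density was lower by less, at 0.623-, 0.525- and 0.690-fold that of 2L, 3L and 3R, and median width was 0.881-, 0.776- and 0.897-fold. In the combined list the differences were smaller, with coverage 0.535-, 0.450- and 0.699-fold and density 0.831-, 0.814- and 0.909-fold. Regions of more than 5 kb were 5.04% ± 1.19 of the X members, against 18.9% ± 0.278 on 2L, 25.6% ± 2.59 on 3L and, on 3R, 14.8% ± 0.531.

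The ratio of X to the other arms changed with distance. From 0 to 1 Mb, X was covered over 16.1% ± 2.07, while 2L had 66.1% ± 5.41, 3L had 72.5% ± 6.28 and 3R had 40.2% ± 1.09 (SD, n = 2). X was there 0.244-fold ± 0.0114 of 2L, 0.222-fold ± 0.00938 of 3L and 0.400-fold ± 0.0407 of 3R. From 1 to 2 Mb the ratios were lower still for each arm, at 0.214 ± 0.0212 for 2L, 0.0801 ± 0.00463 for 3L and 0.201 ± 0.0113 for 3R, although the difference from the first step was near the replicate spread for 2L. From 4 to 5 Mb, X at 12.4% ± 0.852 lay within the replicate spread of 2L at 12.5% ± 0.672, below 3R at 15.6% ± 0.263 and below 3L at 19.9% ± 0.195. In the combined list X from 3 to 4 Mb, at 32.2%, was above 3L (31.7%) and 3R (28.3%) and below 2L (47.4%). From 4 to 5 Mb the combined list had X at 25.9%, above 2L (24.5%) and below 3L (34.6%) and 3R (28.0%). The ratio of the proximal 5 Mb to the rest of the arm was 1.69 ± 0.125 on X, against 5.57 ± 1.03 on 2L, 5.61 ± 0.668 on 3L and 4.05 ± 0.579 on 3R. The combined list gave 1.58 on X, against 3.70, 3.48 and 2.90 on those arms. How far the assembly of each arm extends into heterochromatin differs, so equal distances are not equal depths of heterochromatin.

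The score ranks of X members did not follow their sparse coverage. From 0 to 1 Mb the median percentile on X was 58.8 in replicate 1 and 60.9 in replicate 2. It was 83.0 and 85.6 on 2L, 85.1 and 79.7 on 3L, and 51.4 and 53.4 on 3R. From 2 to 3 Mb the order turned, with 53.8 and 58.7 on X, against 38.2 and 38.2 on 2L, 40.2 and 43.2 on 3L, and 40.9 and 27.4 on 3R. X also had the highest median of the 4 arms from 3 to 4 and from 4 to 5 Mb in both replicates. From 1 to 2 Mb it was above 2L and 3R and below 3L. Higher score ranks were not limited to the base of X. Regions in the rest of X had median percentiles of 47.3 and 53.8, against 28.7 and 33.4 in the rest of 2L, 30.0 and 33.1 in the rest of 3L, and 27.2 and 29.4 in the rest of 3R. From 2 to 3 Mb, X was thus covered less than the 3 autosomal arms while its regions ranked higher than theirs. Whether scores on X and on autosomes were scaled alike is not given in the sources used here.

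**Figure D4:**
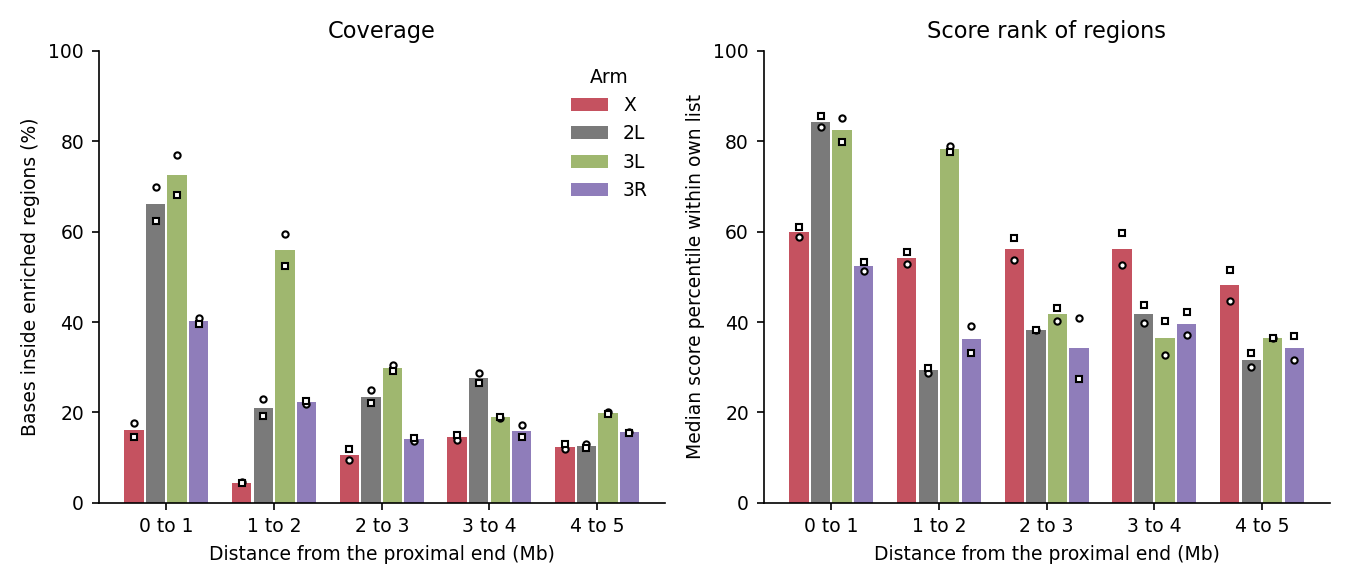
Percent of bases inside enriched regions (left) and median score percentile of regions within their own list (right) in 5 steps of 1 Mb from the proximal end, for X, 2L, 3L and 3R. Bars are means of 2 replicates, circles replicate 1 and squares replicate 2. In both replicates X is lowest in coverage from 0 to 3 Mb and highest in score percentile from 2 to 5 Mb. From 3 to 5 Mb its mean coverage is also lowest, but its coverage in replicate 2 is not.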

How the data were processed

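Regions of enrichment from 2 ChIP libraries and a combined list were used as deposited. Per the submitters' processing notes, the aligner was Bowtie 0.12.7. Positions refer to FlyBase release 5, per the file headers. Each region carries 1 score that the authors deposited. Not given in the sources used here: the region caller, its threshold, the scale of the score, the placement of repeat reads (which could raise or lower coverage near heterochromatin) and the way replicates were combined. The lists hold no read counts, so depth is unknown.

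Interval arithmetic used Python 3.11.15, numpy 2.4.6 and pandas 2.3.3, with functions checked on simulated regions. A region belonged to a window by its midpoint. Covered bases were clipped to the window. Overlap meant at least 1 bp. Score percentiles were ranks within a list. Shares carry 95% Wilson intervals (scipy 1.17.1), which cover counting error only. Both ChIP replicates enter each mean ± SD, and the combined list, which is not independent of them, is described beside them. Regions are not replicates, and 2 replicates cannot give a two-sided exact p below 0.5, so no test was made.

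Named regions are the 10 highest-scoring and 5 widest combined members held by both replicates, the top member of each 1 Mb step, the 5 longest empty stretches and the regions at the distal edge. The interval, the comparisons and these rules were chosen with earlier results of these data known. The alternatives were other windows, score cut-offs, overlap criteria, merged neighbours, joining gaps, means for medians, counts for bases, and each replicate alone. No sequence is printed and no gene is named, because no genome or annotation of release 5 was used. The 1 region that replicate 1 lists as depleted lies outside X and was left out.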

Additional observations from a re-analysis of the deposited data

How the results depend on the processing

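No paired analysis was possible because the inputs have no region list of their own and no result comes from a test. Of 42 values under alternative settings, 15 stayed within the replicate spread, the counting interval or, for the number of groups, 1.5 times the main value, and 27 moved. Among those 15, coverage with members taken by any overlap was the same by construction, since covered bases do not depend on how members are assigned. With either replicate left out, all 28 values stayed within 1 SD, as a mean of 2 must. In the higher-scoring 50% of each list, coverage of the proximal 5 Mb of X was 8.30% and its ratio to the rest of X 1.92; the steps outward were 13.0%, 2.71%, 7.80%, 10.8% and 7.16%, fewer regions by construction, with the second step still lowest. That setting gave ratios of 0.267 to 3L and 0.656 to 3R, and 62.5% of replicate 2 members shared. A 6 Mb window gave coverage of 10.5%, a ratio to the rest of X of 1.51 and a ratio to 3R of 0.510; a 4 Mb window gave ratios of 0.333, 0.259 and 0.496 to 2L, 3L and 3R. Counted by regions per Mb in the 5 Mb window, the ratios to 2L, 3L and 3R were 0.623, 0.525 and 0.690. Merging neighbours under 1000 bp apart gave 39.3 regions per Mb and a median width of 2179.5 bp, and the mean width was 2447 bp. A joining gap of 20 kb gave 56 groups, against 92 with 10 kb. With 50% reciprocal overlap, 60.9% of members of either replicate were shared, and 24.0% of combined members matched both replicates and 49.5% neither. Shares of the whole lists were not computed with that criterion or in the higher-scoring 50%, so these shares have no background to be set against. Left-out replicates gave 11.5% to 11.8% coverage and a ratio to the rest of X of 1.61 to 1.78. The overlap shares need both replicates, so they have no value with one left out. Depth is unknown, so the weakest binding that could be called cannot be stated.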
